A study of Bos taurus with 22 samples.

Results

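The miR-26 family was examined in bovine plasma through bta-miR-26a and bta-miR-26b, its 2 rows among the 844 mature miRNAs of the deposited read table, found by their names. The table holds 611 bovine miRNAs and 233 human homologues, and both members were among the 195 miRNAs abundant enough to be tested. The plasma came from 11 Holstein-Friesian heifers, 14 to 17 months old and never inseminated before. Each heifer was sampled on Day 0, the non-pregnant baseline at insemination, and again on Day 60 of pregnancy, which gave 11 libraries per day. There was no group of heifers sampled at both times without a pregnancy, so pregnancy and the 60 days that passed cannot be told apart. Every heifer was oestrus-synchronised and then inseminated at oestrus, so the Day 0 plasma also came after synchronisation. The RNA was that of plasma, which carries miRNAs from many tissues. The paper reported an absence of haemolysis, the rupture of red cells, for most of its plasma samples.

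miRNAs are short RNAs that pair with target messenger RNAs through their seed, a stretch near the 5′ end, and lower the output of those targets. In vertebrates the miR-26 genes lie in introns of the CTDSP genes, which encode small phosphatases of the RNA polymerase II tail, and miR-26a and miR-26b share the same seed. In human and mouse cells miR-26a is known to repress EZH2, the histone methyltransferase of the Polycomb complex. Mouse studies also tie it to insulin sensitivity in the liver.

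The deposited table places miR-26a on chromosome 5 of bosTau4, from 60085865 to 60085886 on the plus strand, and miR-26b on chromosome 2, from 110812701 to 110812722 on the plus strand. Both rows are 22 bases long. In RefSeq (ARS-UCD2.0), both members matched by name. MIR26B lies within the span of CTDSP1. RefSeq lists a pair of genes for miR-26a, MIR26A-2 within CTDSP2 and MIR26A-1 within CTDSPL, and the read table has a single row for both, so their reads cannot be told apart. Another RefSeq locus of the family, MIR26C, also named bta-mir-3603, lies within CTDSPL as well and was not analysed here. Reads were assigned with 1 mismatch allowed, and whether any moved between the closely related miR-26a and miR-26b was not tested. miR-1297, a human homologue with the same seed, had at most 1 read in a library and 4 reads over the 22 libraries.

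Levels are given in RPMM, the reads of a miRNA per 1000000 miRNA reads of its library. Libraries held from 1912290 to 6839128 miRNA reads on Day 0 and from 304117 to 12775451 on Day 60, where the shallowest was that of heifer 17. miR-26a had 4112 reads and miR-26b 2220 in that library, so counting error was small everywhere. The widest 95% Wilson interval reached 3.04% of the value on either side for miR-26a and 4.15% for miR-26b. These intervals cover counting error only. The Day 60 library of heifer 17 also stood apart in content. It held 22843 RPMM of miR-122, the liver miRNA, where the next highest Day 60 library, that of heifer 29, held 140 and the highest Day 0 library 151. The change of the miR-26 members, their ratio, share and places, the correlations among and with them and their spread are therefore also given without this heifer.

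miR-26a was the more abundant member. On Day 0 its level ran from 3660 RPMM in heifer 29 to 18005 in heifer 32, with a median of 7166. On Day 60 it ran from 7438 RPMM in heifer 29 to 24008 in heifer 11, with a median of 11559. The days overlapped, but 11 of 11 Day 60 libraries lay above the Day 0 median. Day 60 exceeded every Day 0 value in 3 libraries, and 6 Day 0 libraries were under the lowest value of Day 60. The mean went from 9040 ± 4581 to 13805 ± 6231 RPMM (SD, n = 11).

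miR-26b showed the same picture at a lower level. On Day 0 it ran from 1429.7 RPMM in heifer 29 to 6294 in heifer 32, with a median of 2047, and on Day 60 from 2469.5 in heifer 31 to 7299.8 in heifer 17, with a median of 3576. The overlap was of the same extent, with 11 of 11 Day 60 libraries over the Day 0 median, 3 over every Day 0 value and 6 Day 0 libraries under the lowest of Day 60. The mean went from 2971 ± 1612 to 4505 ± 1986 RPMM (SD, n = 11).

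**Figure D1:**
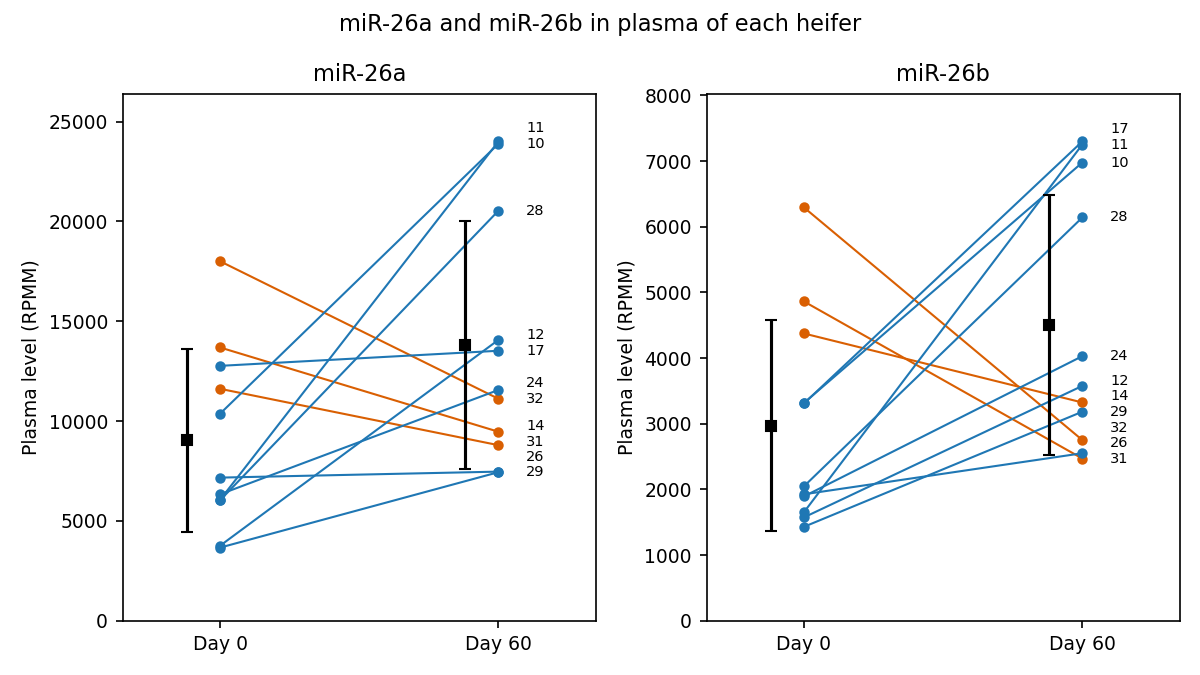
Plasma level (RPMM) of miR-26a and miR-26b on Day 0 and Day 60. Each line is a heifer, named by its number at the right, blue where Day 60 was higher and orange where it was lower, and black squares with bars are the mean and SD over 11 heifers. In both panels 8 lines rise, and the 3 that fall are those of heifers 14, 31 and 32.

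Both members were higher on Day 60 in the paired test over all 195 miRNAs, by close to the same amount. The log2 fold-change (log2FC) was 0.85 ± 0.26 (SE) for miR-26a, which is 1.81-fold with an FDR of 0.0220 in edgeR, and 0.87 ± 0.27 (SE) for miR-26b, which is 1.83-fold with an FDR of 0.0241. FDR is the Benjamini-Hochberg adjusted p of edgeR's quasi-likelihood test with heifer as a block, on reads normalised by TMM, which scales libraries on the bulk of miRNAs. At the threshold of 0.05, 17.4% of the tested miRNAs were called higher on Day 60 and 17.9% lower. In the order of log2FC values, from the highest, miR-26b stood at place 10 and miR-26a at place 13 of 195. Each member was higher in 9 of 11 heifers on TMM-normalised reads, which held for 20.5% of tested miRNAs in at least 9 heifers, and in 8 of 11 on RPMM. Without heifer 17 both still passed, at 0.91 and 0.81 (FDR 0.0217 and 0.0464 in edgeR).

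All levels here are relative to the other miRNAs of a library. From these reads alone, more miR-26 in plasma and less of the abundant miRNAs cannot be told apart. The paper also measured both members by RT-qPCR, scaled to a spiked-in miRNA and miR-128, and those values were not used here. The call depended on the scaling. With libraries scaled to their total miRNA reads, the log2FC was 0.66 for miR-26a and 0.68 for miR-26b, and neither passed (FDR 0.0771 and 0.0840 in edgeR). Both passed with DESeq2 size factors, upper quartile scaling and scaling to miR-128 (FDR from 0.0153 to 0.0392 in edgeR). The median of all tested miRNAs moved along, from -0.06 with TMM to -0.25 with totals. Relative to that median miR-26a was higher by 0.91 and miR-26b by 0.93 on the log2 scale under both scalings. Without heifer 11, miR-26a did not pass (log2FC 0.75, FDR 0.0533 in edgeR). Nor did miR-26b without heifer 10, 11, 28 or 29 (log2FC 0.81, 0.75, 0.78 and 0.77, FDR 0.0552, 0.0596, 0.0578 and 0.0583 in edgeR).

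The size of the change differed widely between heifers, and the members went together. On TMM-normalised reads, the ratio of Day 60 to Day 0 for miR-26a was 4.30 in heifer 12, 3.55 in heifer 11, 3.43 in heifer 28, 3.00 in heifer 10 and 2.49 in heifer 29. It was lower in the other heifers, at 1.68 in heifer 24, 1.24 in heifer 26, 1.23 in heifer 17, 1.01 in heifer 31, 0.950 in heifer 14 and 0.684 in heifer 32. For miR-26b the ratio was highest in heifer 11, at 3.93, followed by heifers 28, 10 and 29 at 3.02, 2.74 and 2.73. It was lowest in heifers 31 and 32, at 0.678 and 0.484. The heifers that gained most of one member were thus mostly those that gained most of the other, and heifer 32 had the lowest ratio for both.

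**Figure D2:**
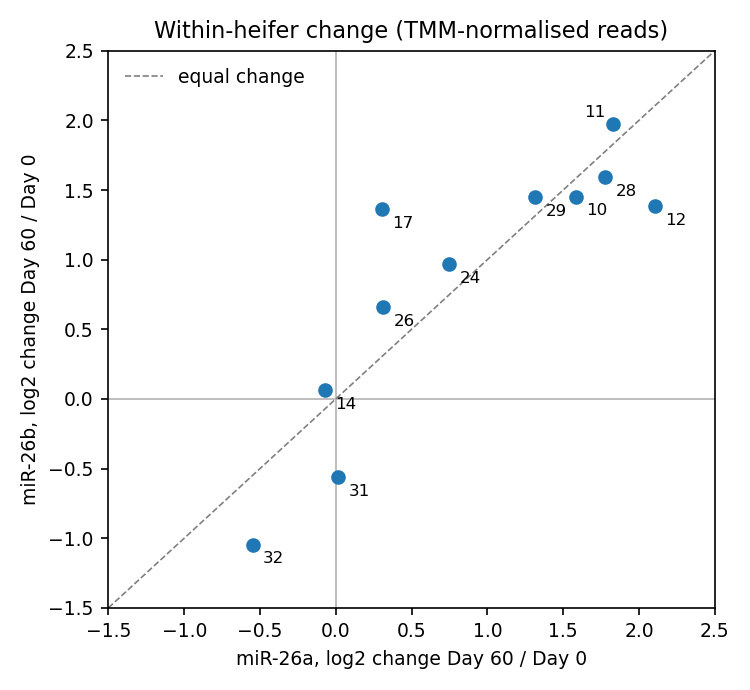
Within-heifer log2 change from Day 0 to Day 60 on TMM-normalised reads, miR-26a on the horizontal and miR-26b on the vertical axis. Each point is a heifer with its number, and the dashed line marks equal change. Points follow the line from heifer 32, at -0.55 and -1.05, to heifer 11, at 1.83 and 1.98, with heifer 17 farthest above it.

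Across the 11 heifers the change of miR-26a followed that of miR-26b, with r = 0.860 by Pearson (p = 0.00019 by permutation, 0.00123 adjusted) and rho = 0.873 by Spearman (p = 0.00096 by permutation, 0.00624 adjusted). Without heifers 12 and 32, the farthest from the median, r was 0.843. The levels were also related within each day. On Day 0 they gave r = 0.941 (p = 2.0e-05 by permutation, 0.00026 adjusted) and rho = 0.900 (p = 0.00039 by permutation, 0.00507 adjusted), and leaving out heifers 29 and 32 gave r = 0.896. On Day 60 they gave r = 0.814 (p = 0.00349 by permutation, 0.0151 adjusted) and rho = 0.791 (p = 0.00587 by permutation, 0.0254 adjusted). Without heifers 10 and 11 the Day 60 r was 0.638 (p = 0.0626 by permutation), and on log2 RPMM it was 0.758 (p = 0.0176 by permutation). In each case the heifers left out were those farthest from the median of miR-26a. Leaving them out narrows its range, which by itself tends to lower r. How far the Day 60 relation rests on heifers 10 and 11 was not tested. Leaving out heifer 17 gave r = 0.928 for the changes, 0.952 on Day 0 and 0.912 on Day 60 (p = 5.0e-05, 3.0e-05 and 0.00097 by permutation, 0.000325, 0.000325 and 0.0042 adjusted). Both members of a pair were read from the same library and share its scaling. Adjusted p-values are over a family of 13 relations.

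The ratio of miR-26a to miR-26b does not depend on the scaling of a library and gives the test of whether the members changed by different amounts. On Day 0 it ran from 2.39 in heifer 12 to 3.86 in heifer 17, with a median of 3.13, and on Day 60 from 1.85 in heifer 17 to 4.04 in heifer 32, with a median of 3.31. In 5 of 11 heifers the ratio was higher on Day 60. Its mean was 3.09 ± 0.522 on Day 0 and 3.13 ± 0.654 on Day 60 (SD, n = 11). Within heifers the log2 ratio changed by 0.01 ± 0.50 (SD, n = 11). The exact test over sign flips of the heifers, two-sided, gave p = 0.965, and 0.965 after adjustment over 4 such tests. The 95% interval of the change, from the same test, was -0.34 to 0.33 on the log2 scale, or 0.791- to 1.26-fold, so differences of that size between the members are not excluded.

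The lowest ratio belonged to the shallowest library, that of heifer 17 on Day 60. Its 95% Wilson interval was 1.76 to 1.95, below the ratios of the other 21 libraries. In this heifer the log2 ratio dropped by 1.06, the largest shift of the 11. There miR-26b was 2.57 times its Day 0 level and miR-26a 1.23 times. Without heifer 17 the change of the log2 ratio was 0.11 ± 0.37 (SD, n = 10, exact p = 0.357). The part of depth, or of the content of this library, in the ratio was not tested.

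**Figure D3:**
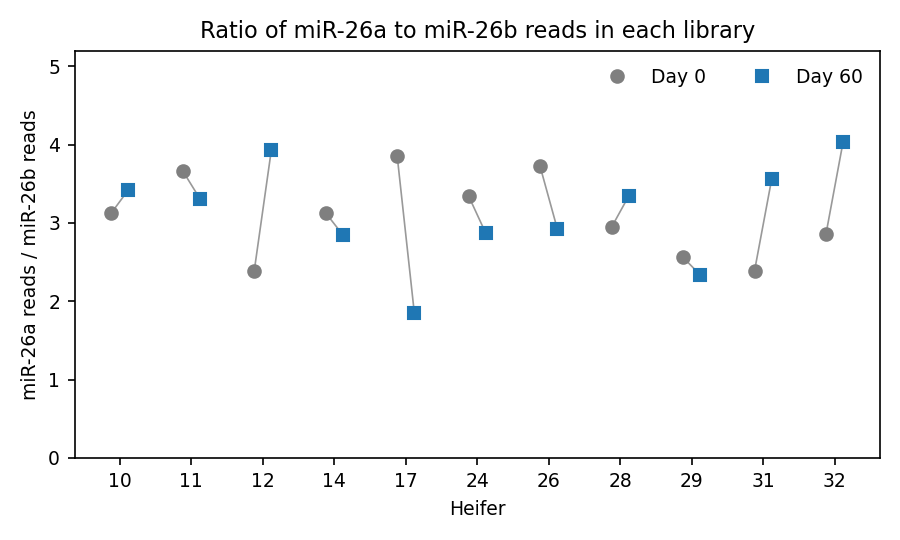
Reads of miR-26a divided by reads of miR-26b in each library, with Day 0 as grey circles and Day 60 as blue squares, joined within each heifer. Ratios lie between 1.85 and 4.04, and the line goes up in 5 heifers and down in 6, most steeply in heifer 17.

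Together the members took 0.509 to 2.43% of the miRNA reads on Day 0 (median 0.909%) and 1.002 to 3.13% on Day 60 (median 1.56%). The share was higher on Day 60 in 8 of 11 heifers. Its mean went from 1.20 ± 0.613 to 1.83 ± 0.798% (SD, n = 11), a difference of 0.630 ± 1.09 percentage points within heifers that did not pass (exact p = 0.0830, 0.111 after adjustment). Without heifer 32 it was 0.797 (exact p = 0.0312), and without heifer 17 it was 0.645 (exact p = 0.107). In heifers 11 and 28 the share was higher by 2.36 and 1.86 percentage points, the highest of the 11.

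In the abundance order of all 844 rows, where place 1 has the most reads, miR-26a moved from places 17 to 35 on Day 0 (median 28) to places 12 to 27 on Day 60 (median 22). It stood closer to the top on Day 60 in 9 of 11 heifers, and the mean shift of -6.00 ± 8.39 places (SD, n = 11) had an exact p of 0.0459, which was 0.111 after adjustment. The unadjusted p rose above 0.05 when any heifer other than 14 or 32 was left out, up to 0.0918, and was 0.0508 without heifer 17. miR-26b moved from places 29 to 55 (median 49) to places 28 to 43 (median 37), closer to the top in 8 of 11 heifers, by -7.55 ± 12.0 places (SD, n = 11, exact p = 0.0723, 0.111 after adjustment). Its unadjusted p fell below 0.05 without heifer 14, 31 or 32, to 0.0488, 0.0449 and 0.0234, and without heifer 17 the shift was -7.30 places (exact p = 0.113).

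By mean RPMM over the 22 libraries, miR-26a held place 25, at 11423 ± 5868 (SD, n = 22), between miR-423-3p at 12965 ± 6090 and miR-126-5p at 8161 ± 3579. The SD over the 22 libraries also holds the difference between the days. On Day 0 miR-423-3p was at 17502 ± 4796 RPMM and miR-26a at 9040 ± 4581 (SD, n = 11). On Day 60 they were at 8427 ± 3096 and 13805 ± 6231 (SD, n = 11). The order changed with the day, since miR-26a was above miR-423-3p in 1 of 11 Day 0 libraries and in 8 of 11 Day 60 libraries. miR-26b held place 39, at 3738 ± 1932, between miR-660 at 3838 ± 1362 and let-7i at 3692 ± 1282, and was above each of them in 11 of the 22 libraries. It was above miR-660 in 3 of 11 Day 0 and 8 of 11 Day 60 libraries.

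Among tested miRNAs the miR-26 members were some of the most variable between heifers before pregnancy. On Day 0 the CV of RPMM was 50.7% for miR-26a and 54.3% for miR-26b, against a median of 29.7% over the 195 miRNAs, which placed them 182 and 187 from the steadiest. The highest Day 0 library had 4.92 times the miR-26a and 4.40 times the miR-26b of the lowest. On Day 60 the CVs were 45.1 and 44.1%, against a median of 38.2%, at places 138 and 135. On the log2 scale the SD between heifers went from 0.76 to 0.62 for miR-26a and from 0.74 to 0.62 for miR-26b. Without heifer 17 the CVs of miR-26a and miR-26b were 53.7 and 57.7% on Day 0 (places 182 and 189) and 47.5 and 43.8% on Day 60 (places 161 and 146), against medians of 28.6 and 34.97%. The difference in spread between the days was not tested.

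No relation between a heifer's level on Day 0 and its level on Day 60 was detectable with 11 heifers. The correlation between the days was 0.0124 for miR-26a (Pearson r, p = 0.971 by permutation, 0.979 adjusted, n = 11) with a rho of 0.0091 (p = 0.990, 1 adjusted) and -0.196 for miR-26b (p = 0.552 by permutation, 0.948 adjusted) with a rho of 0 (p = 1, both raw and adjusted). Without the 2 heifers farthest from the median, r was -0.201 and 0.356, and without heifer 17 it was 0.0226 and -0.244. The 3 heifers whose RPMM was lower on Day 60 for both members, 14, 31 and 32, were among the 4 with the highest miR-26a on Day 0. They also had the 3 highest levels of miR-26b on that day, at 4374, 4862 and 6294 RPMM. The change holds the Day 0 level. Where the days are not related, heifers high on Day 0 therefore tend to have a lower change by construction. Nothing is read from this order.

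The miRNA closest to miR-26a over the 22 libraries was let-7f, a member of the let-7 family known for restraining growth genes. Closeness was taken as Pearson r of log2 TMM-normalised reads, centred within each day, as a description over libraries that share depth and scaling. let-7f reached 0.968, ahead of miR-374b at 0.910, miR-6119-5p at 0.907, miR-28 at 0.900 and miR-26b itself at 0.895. For miR-26b the order was miR-374a at 0.905, miR-26a at 0.895, miR-6119-5p at 0.889, miR-374b at 0.883 and miR-155, a miRNA of activated lymphocytes and macrophages, at 0.876. The median r over all tested miRNAs was -0.01 for miR-26a and -0.02 for miR-26b. At the other end, miR-22-5p had an r of -0.613 with miR-26a and miR-92b one of -0.767 with miR-26b.

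Apart from the members, these lists of closest miRNAs hold 6 names, and each of the 6 was higher on Day 60 in edgeR, as were 17.4% of all tested miRNAs. They were chosen for following the members over the same libraries, so their count is a description. let-7f went from 4250 ± 2450 to 6483 ± 3154 RPMM (SD, n = 11), a log2FC of 0.86 ± 0.29 (SE) with an FDR of 0.0334 in edgeR, and was up in 7 of 11 heifers. miR-6119-5p went from 253 ± 134 to 397 ± 179 RPMM (log2FC 0.85 ± 0.26 SE, FDR 0.0220 in edgeR, up in 8 of 11 heifers). miR-28 went from 191 ± 59.4 to 317 ± 87.8 RPMM and was the one of the 6 that was up in 11 of 11 heifers (log2FC 0.94 ± 0.17 SE, FDR 0.00597 in edgeR). miR-155 went from 250 ± 126 to 477 ± 200 RPMM and was up in 9 of 11. miR-374b and miR-374a had log2FC values of 0.84 and 0.65 (FDR 0.0334 and 0.0220 in edgeR), each higher in 9 of 11 heifers. With library totals let-7f, both miR-374 members and miR-6119-5p did not pass (FDR 0.101 in edgeR for let-7f, 0.101 for miR-374b, 0.105 for miR-374a and 0.0729 for miR-6119-5p), while miR-28 and miR-155 did (FDR 0.0120 and 0.0117 in edgeR).

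**Figure D4:**
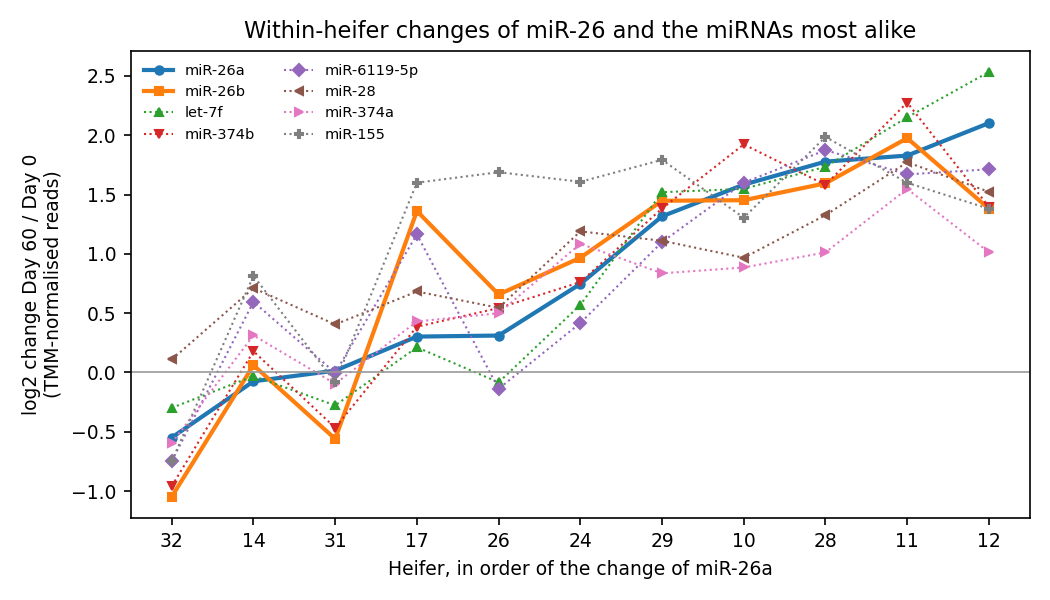
Within-heifer log2 change from Day 0 to Day 60 on TMM-normalised reads of miR-26a and miR-26b (solid lines) and of the 6 other miRNAs most alike in pattern (dotted lines), with heifers in the order of the change of miR-26a. All 8 are lowest in heifer 32 and above 0 in heifers 10, 11, 12, 28 and 29, and miR-26b, miR-6119-5p and miR-155 stand well above miR-26a in heifer 17.

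Of miRNAs known in human or mouse to share the target EZH2, 6 of 8 were tested, of which 4 were higher and 1 lower on Day 60, where 17.4% of all tested miRNAs were higher and 17.9% lower. The median log2FC of the 6 was 0.72, against -0.06 over all tested miRNAs. let-7c, let-7a-5p, let-7b and miR-101 were higher (log2FC 2.05, 0.75, 0.69 and 0.80, FDR 0.00127, 0.0124, 0.0220 and 0.0238 in edgeR), and miR-138 was lower (log2FC -0.70, FDR 0.0220 in edgeR). miR-214 had a log2FC of -0.72 and did not pass (FDR 0.0554 in edgeR). Those that were higher, apart from miR-101, are close members of the let-7 family, so the count and the median rest largely on that family. Outside it miR-101 had a positive log2FC, and miR-138 and miR-214 had negative ones. Whether reads moved between the let-7 members was not tested. Under library totals 1 of the 6 was higher and 2 were lower, where 11 of all 195 tested miRNAs were higher and 57 lower. The median of the list stayed above 0 under each of the 5 scalings tried. Several of its members are among the miRNAs the study named as changed, so their direction is not independent evidence.

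Some markers of blood cells were also higher on Day 60. No relation of the change of the summed red cell or leukocyte level with that of the miR-26 members within heifers was detectable. Of the 3 red cell miRNAs, miR-451 was higher on Day 60 (log2FC 0.79, FDR 0.0425 in edgeR), while miR-144 and miR-486 did not pass (log2FC 0.46 and 0.43, FDR 0.171 and 0.236). By comparison, 17.4% of all tested miRNAs were higher. With library totals 0 of the 3 passed, where 11 of all 195 tested miRNAs were higher and 57 lower. Their summed level ran from 66967 to 326751 RPMM on Day 0 and from 121309 to 359251 on Day 60, and none was at 0 in any library. Most of the sum was miR-486, at a mean of 163286 RPMM on Day 0 and 187119 on Day 60. In heifers the change of miR-26a and miR-26b against the change of this sum gave r = -0.370 and -0.167 by Pearson (p = 0.257 and 0.626 by permutation, 0.669 and 0.948 adjusted) and rho = -0.500 and -0.282 (p = 0.121 and 0.403 by permutation, 0.393 and 0.805 adjusted). Without heifers 14 and 17 r was -0.119 and -0.207, and without heifer 17 alone it was -0.317 for both. With the mean log2 level of the 3 as a covariate, the log2FC was 1.10 for miR-26a and 0.96 for miR-26b. Without it these were 0.85 and 0.87. Neither passed with the covariate (FDR 0.0526 and 0.0791 in edgeR), and 7 of the 195 miRNAs passed at all. The unadjusted p of edgeR was 0.00216 for miR-26a and 0.0136 for miR-26b with the covariate, against 0.00464 and 0.00618 without it. Over all tested miRNAs, 63 had an unadjusted p under 0.05 with the covariate and 92 without it, and the FDR depends on that number.

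Of the 5 leukocyte miRNAs, miR-155, miR-150 and miR-142-5p were higher on Day 60 (log2FC 1.21, 0.80 and 0.51, FDR 0.00837, 0.0166 and 0.0166 in edgeR), and miR-142-3p and miR-146a did not pass (log2FC 0.62 and 0.57, FDR 0.0553 and 0.0949). Of all tested miRNAs 17.4% were higher. With library totals 1 of the 5 was higher, and with upper quartile scaling 2 were, where 11 and 21 of all 195 tested miRNAs were higher. Their sum ran from 30921 to 45277 RPMM on Day 0 and from 33256 to 66999.8 on Day 60, with none at 0. Most of it was miR-142-5p, at a mean of 31251 RPMM on Day 0 and 40061 on Day 60. The change of this sum gave r = -0.198 with that of miR-26a and -0.0092 with that of miR-26b (p = 0.592 and 0.979 by permutation, 0.948 and 0.979 adjusted). By rho these were -0.0545 and 0.182 (p = 0.881 and 0.593 by permutation, 1 and 0.948 adjusted). Without heifers 14 and 29 r was 0.238 and 0.533, and without heifer 17 it was -0.178 and -0.0319. With the mean log2 level of the 5 as a covariate, chosen after the data were seen, the log2FC of miR-26a was 0.47 (SE 0.45, FDR 0.986 in edgeR) and that of miR-26b turned to -0.10 (SE 0.39, FDR 0.986 in edgeR). In that fit 0 of 195 miRNAs passed in edgeR, 7 had an unadjusted p under 0.05, and limma-voom gave 0 and 8. The covariate rests on miRNAs of which 3 of 5 were themselves higher on Day 60, and it holds miR-155, one of the miRNAs most alike to miR-26b. Across heifers the change of miR-155, picked for that likeness, had r = 0.908 (Pearson) with that of miR-26b. The covariate weighs the 5 miRNAs alike, which the sum does not. The part of blood cell RNA in the change of the miR-26 members was not tested beyond these fits.

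Of the other marker lists, 0 of 3 platelet, 0 of 2 tested hepatocyte and 0 of 1 tested muscle miRNAs passed in either direction in edgeR. Over all tested miRNAs 35.4% passed, so a count of 0 in lists this small says little. The platelet list was miR-223, miR-126-3p and miR-126-5p (log2FC -0.19, -0.15 and -0.18). miR-122, the defining liver marker, was not abundant enough to be tested, with a median of 43.0 RPMM on Day 0 and 43.4 on Day 60. Of the muscle markers, miR-1 and miR-206 were also too low to be tested, and they had 0 reads in 5 and 11 of the 22 libraries. The summed hepatocyte level ran from 34019 to 81789 RPMM on Day 0 and from 22007 to 78354 on Day 60, and the platelet level from 6234 to 16789 and from 3316 to 16506. Most of the hepatocyte sum was miR-192, at a mean of 55985 RPMM on Day 0 and 45170 on Day 60. In the Day 60 library of heifer 17 the sum was 52582 RPMM, of which 22843 was miR-122. The changes of miR-26a and miR-26b against that of the hepatocyte sum gave r = -0.0571 and -0.0901 (p = 0.866 and 0.790 by permutation, 0.979 adjusted for both) and rho = 0.0545 and -0.155 (p = 0.879 and 0.656 by permutation, 1 and 0.948 adjusted), and r was 0.163 and 0.107 without heifers 31 and 32. Without heifer 17 the hepatocyte r was -0.0756 and -0.0768. Against the change of log2 total miRNA reads r was -0.157 and -0.424 (p = 0.656 and 0.196 by permutation, 0.948 and 0.635 adjusted) with rho at -0.264 and -0.464 (p = 0.434 and 0.155 by permutation, 0.805 and 0.404 adjusted), and r was -0.321 and -0.365 without heifers 14 and 17 and -0.445 and -0.435 without heifer 17. With 11 heifers such correlations carry wide error.

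**Figure D5:**
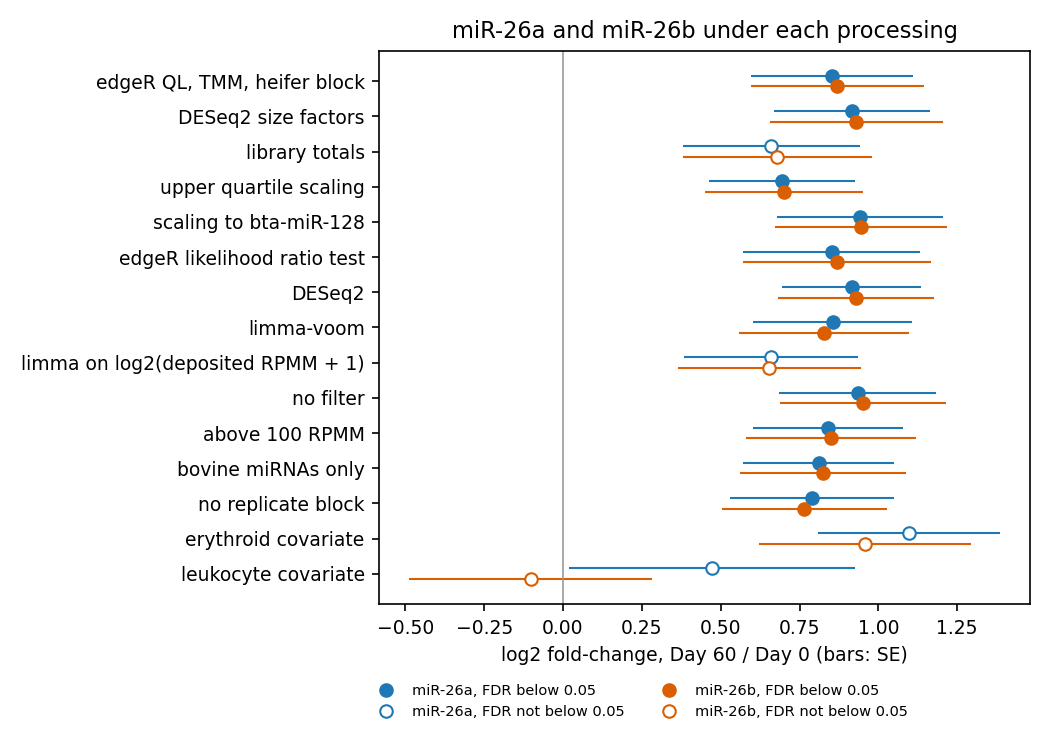
Log2 fold-change of Day 60 over Day 0 for miR-26a (blue) and miR-26b (orange) under each processing, with bars as SE. Filled points have an FDR below 0.05. Values lie between 0.65 and 1.10 except under the leukocyte covariate, at 0.47 and -0.10, and points are open with library totals, with the deposited RPMM and under both covariates.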

How the data were processed

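The authors made TruSeq small RNA libraries from plasma, assigned reads by sRNAbench 1.0 (Bowtie 0.12.9 per the labels, bosTau4, miRBase 21, 1 mismatch allowed) and deposited read counts per mature miRNA. They also deposited RPMM, a score here, as rows of the 2 species were scaled by separate totals. For both members these values matched the counts within 0.2%.

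Day and heifer came from the labels. Same-heifer libraries correlated at a mean of 0.141 as deviations from each day's mean, against -0.00628 for other heifers. The own heifer was the best match in only 3 cases. Heifer was a block because both libraries came from 1 animal. Counts were tested with edgeR 4.0.16 (R 4.3.3), TMM and quasi-likelihood, keeping miRNAs of over 25 RPMM in at least 1 day's libraries, more than 8 of them. The SE given for edgeR is not an output of its test. It is the absolute log2FC divided by the square root of the test's F or likelihood ratio statistic. Within-heifer measures used 2048 sign patterns (smallest p 0.000977), correlations 100000 permutations (smallest p 1e-05), both two-sided. Correlations used log2 values plus 1, the ratio log2 without a pseudocount, and shares and places no transformation. Alternatives used DESeq2 1.42.0 and limma 3.58.1. Permutations ran in scipy 1.17.1 and numpy 2.4.6, under Python 3.11.15 with pandas 2.3.3, and plots in matplotlib 3.10.9. The edgeR step was tested on simulated data.

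Alternatives were other scalings, tests and filters, bovine rows only, no block, each heifer left out, covariates of red cell and leukocyte miRNAs, and relations without heifer 17. Named miRNAs are the members, the 5 closest to each, neighbours in abundance, miR-128, marker miRNAs and up to 4 of the target list with the smallest p. Outside this rule, after values were seen, miR-1297, miR-101, miR-214, miR-22-5p and miR-92b were named. Members and lists were chosen with earlier results of these data known. A second target list is not reported here. No miRNA sequences were used here.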

Additional observations from a re-analysis of the deposited data

How the results depend on the processing

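Over 25 alternatives the log2 fold-change of miR-26a stayed above 0, from 0.47 to 1.10, and passed in 20 (edgeR, DESeq2 or limma FDR from 0.000277 to 0.986). That of miR-26b ran from -0.10, its 1 reversal, under the leukocyte covariate, to 1.05 and passed in 17 (FDR from 0.00112 to 0.986). Those that did not pass beside single heifers were library totals (0.66 and 0.68), limma on deposited RPMM (0.66 and 0.65, FDR 0.0700 and 0.0847), the erythroid covariate (1.10 and 0.96) and the leukocyte covariate (0.47 and -0.10). With the erythroid covariate the unadjusted p of edgeR was 0.00216 and 0.0136, against 0.00464 and 0.00618 in the main fit. Why these settings did not pass was not tested. Leaving out single heifers gave 0.72 to 0.99 for miR-26a and 0.75 to 1.05 for miR-26b. Without the replicate block both passed, at 0.79 and 0.77 (edgeR FDR 0.0193 and 0.0234).

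The number of miRNAs past the threshold was 69, with 34 higher and 35 lower. It was 7 with the erythroid covariate, 0 with the leukocyte covariate (edgeR, 7 at an unadjusted p under 0.05), and 37 to 97 without single heifers, the lowest without heifer 11, then 44 without heifer 10 or 28. Library totals gave 11 higher and 57 lower, upper quartile scaling 21 and 58, scaling to miR-128 35 and 20, and limma on deposited RPMM 17 and 59.

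Without single heifers the change of the log2 ratio ran from -0.0653 to 0.113, the share difference from 0.457 to 0.797 percentage points, and the shift in places from -7.40 to -4.80 for miR-26a and from -9.70 to -5.90 for miR-26b. Without the 5 most abundant miRNAs in the denominator the share difference was 1.14 (exact p = 0.0498). Without the block 83 miRNAs passed, with 41 higher and 42 lower, and neither the ratio nor the share passed. The places and relations had no fit without it. On Day 60 the r between the members was 0.638 without heifers 10 and 11. Without heifer 17, chosen after the data were seen, each of the 13 relations kept its sign and its side of the threshold. Relations that turned sign were none of those past the threshold. On log2 RPMM they were Day 0 with Day 60 of miR-26a (-0.0446), the leukocyte sum with miR-26a and miR-26b (0.0656 and 0.243) and the hepatocyte sum (0.182 and 0.160). By rho they were the leukocyte sum with miR-26b (0.182) and the hepatocyte sum with miR-26a (0.0545). Without the 2 farthest heifers they were the days of miR-26a and miR-26b (-0.201 and 0.356), the leukocyte sum (0.238 and 0.533) and the hepatocyte sum (0.163 and 0.107). Both members had at least 2220 reads in every library, which bounds counting error only. Other effects of depth were not tested.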
